A study of Mus musculus with 16 samples.

Results

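The lysosome, the proton pump that acidifies it and the autophagy machinery that feeds it were followed here in bone marrow-derived macrophages (BMDM) from *Camkk2*-/- and wild-type (WT) mice. The set holds 35 mouse genes chosen by name: lysosomal membrane proteins, lysosomal hydrolases and their activators, the transcription factors TFEB and TFE3, subunits of the vacuolar H+-ATPase (V-ATPase), and autophagy genes. A gene was measured by the probe set that carries its symbol in the probe annotation, and by the brightest of these where there were several. Of the 35 genes, 33 had a probe set among 19505 genes of the array, whereas no probe set carried the symbols *Glb1* and *Atp6v0c*, which were not analysed here.

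BMDM were grown from marrow in low-attachment plates for 5 days with 30% L929-conditioned medium, which supplies the macrophage growth factor CSF1, and nearly all cells carried the macrophage markers CD11b and F4/80 by the labels. Tumor-conditioned medium (TCM) came from E0771 cells, a mouse breast cancer line, and made up 20% of the medium according to the sample labels, although the study's methods give another share. There were 4 groups with 4 biological replicates each: *Camkk2*-/- cells in TCM, WT cells in TCM, *Camkk2*-/- cells in regular medium without TCM (RM), and WT cells in RM. The *Camkk2*-/- mice lack the kinase gene in the whole body, so the cells carried the deletion throughout differentiation, and the mice were females of 10 to 12 weeks, with long bones of 16 mice per genotype behind the 4 replicates. The comparisons ask whether the absence of CaMKK2 changed gene expression in either medium, and whether TCM changed it in either genotype.

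Lysosomes digest what macrophages take up and what autophagy delivers from their own cytoplasm. The V-ATPase, built from a membrane sector (V0) that conducts protons and a cytoplasmic sector (V1) that hydrolyses ATP, makes them acidic, which their hydrolases need. CaMKK2 is a calcium/calmodulin-dependent kinase that phosphorylates AMPK, a kinase that starts autophagy when energy is short, and TFEB and TFE3, which the nutrient sensor mTORC1 keeps in the cytoplasm, bind a DNA element in the promoters of many lysosomal genes.

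All values are log2 signals, in which a difference of 1 is a doubling. The targeted gene was lower in the arrays labelled as knockout: *Camkk2* averaged 7.65 ± 0.46 in *Camkk2*-/- TCM-BMDM and 9.51 ± 0.25 in WT TCM-BMDM, and 6.74 ± 0.67 in *Camkk2*-/- RM-BMDM and 9.59 ± 0.34 in WT RM-BMDM (SD, n = 4 each; limma, adjusted p = 0.000387 in TCM and adjusted p = 6.14e-06 in RM). All 7 measured macrophage markers lay above the median of 5.37 of 23 probe sets that match no mouse sequence, and 32 of the 33 genes of the set had every value above the highest mean of those probe sets (6.82), with *Tfeb* as the exception (lowest value 6.42). The mean of *Camkk2* in *Camkk2*-/- RM-BMDM was under that highest mean too, so that no fold change is given for it. Within *Camkk2*-/- cells the *Camkk2* signal passed the test as higher in TCM than in RM (limma, adjusted p = 0.0382), with overlapping arrays. Markers of erythroid cells were at background (0 of 2 above that median in any group), as were most of those of dendritic cells (2 of 6 above it), T cells (2 of 6), B cells (1 of 3), and fibroblasts and epithelial tumor cells (1 of 6). Markers of neutrophils (10 of 11 above it, all but *Camp*), inflammatory monocytes (4 of 4), and mast cells and basophils (4 of 4) were present and varied between the groups. In bulk RNA, fewer cells of a type and less RNA per cell cannot be told apart. The deviations from the group mean, as an SD over all genes, were widest in WT TCM replicate 3 (0.355) and replicate 1 (0.325), against 0.220 to 0.301 in the other arrays.

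**Figure D1:**
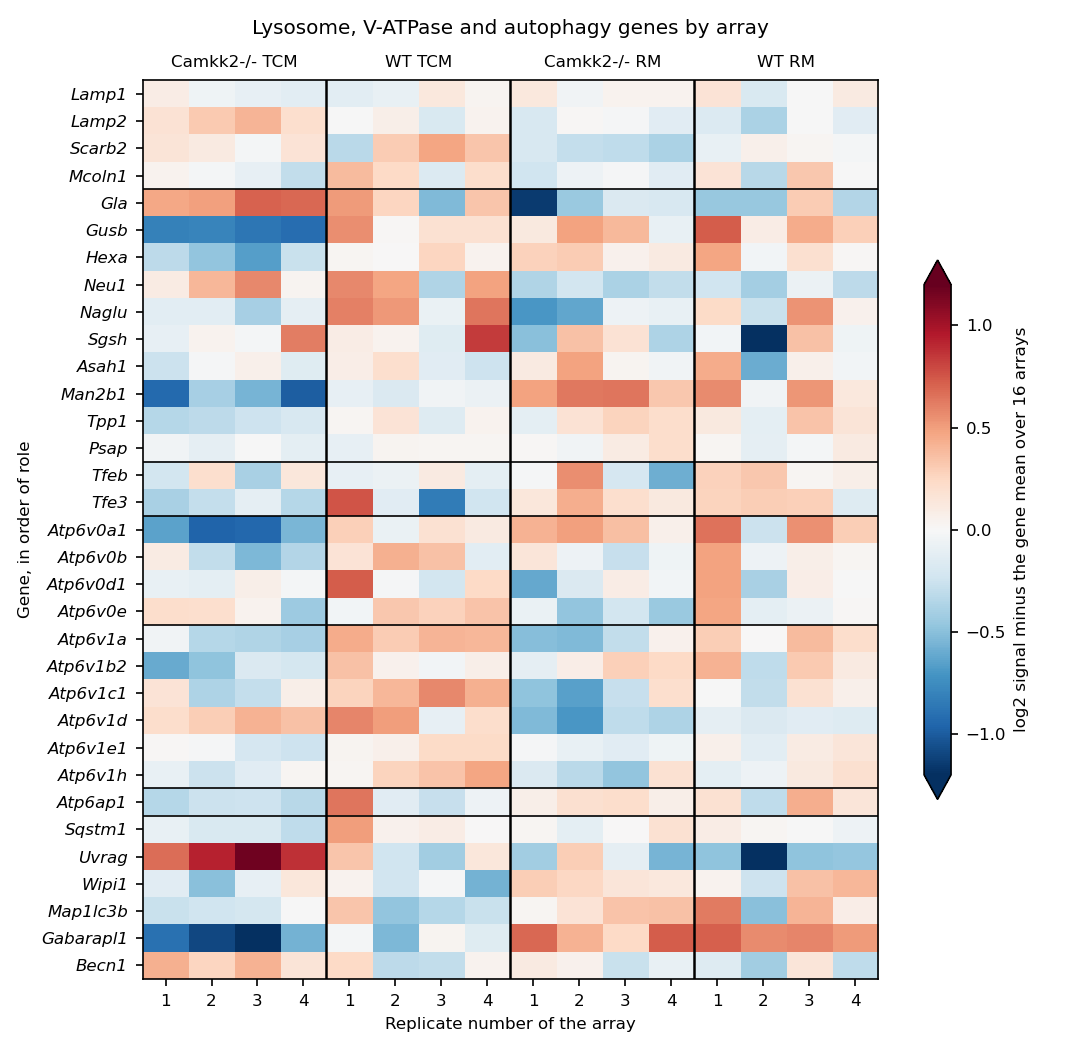
Log2 signal of the 33 measured genes (rows, by role) in the 16 arrays (columns, by group and replicate number), as the difference from each gene's mean over the 16 arrays. *Gusb*, *Atp6v0a1*, *Man2b1* and *Gabarapl1* are lowest in the 4 *Camkk2*-/- TCM arrays, and *Uvrag* is highest there.

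In TCM, 5 of the 33 genes were lower in *Camkk2*-/- macrophages than in WT macrophages: *Gusb*, *Atp6v0a1*, *Gabarapl1*, *Atp6v1a* and *Man2b1*, which encode a glucuronidase, a pair of proton pump subunits, an autophagosome protein and a mannosidase. A single gene, *Uvrag*, which encodes a partner of Beclin 1, was higher. Changes ran from a 2.11-fold lower signal for *Gusb* to a 1.94-fold higher signal for *Uvrag*. The lower genes made up 15.2% of the set and the higher one 3.03%. Among the 10684 genes with a mean signal above the background median of 5.37, 3.05% were lower and 4.61% higher. In RM no gene of the set passed the test between genotypes, against 0.749% higher and 0.468% lower among those 10684 genes. Within *Camkk2*-/- cells, TCM against RM gave 5 lower genes (*Gabarapl1*, *Man2b1*, *Atp6v0a1*, *Gusb* and *Hexa*) and 4 higher ones (*Uvrag*, *Gla*, *Atp6v1d* and *Neu1*). These were 15.2% and 12.1% of the set, against 9.04% lower and 9.85% higher among the 10684 genes. Within WT cells, TCM against RM gave *Gabarapl1* alone, lower in TCM (3.03% of the set). There 1.21% of the 10684 genes were lower and 3.81% higher.

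Promoter sequences are shown for the genes on which these results turn, because TFEB and TFE3 are known to bind CACGTG, an E-box, often within TCACGTGA. RefSeq windows from 250 bases before to 50 bases after the transcription start (build GRCm38.p6) were matched by symbol for 28 of the 33 genes. CACGTG, which reads the same on both strands and lies within TCACGTGA, occurred in 9 of the 28 (32.1%), against 2187 of 27025 genes of the whole table (8.09%). TCACGTGA occurred in 5 of the 28 (17.9%), against 304 of the whole table (1.12%). These matches are a description of the letters in the windows and not binding sites. Of the genes lower in *Camkk2*-/- TCM-BMDM, *Atp6v1a* held TCACGTGA 131 bases before its start. The windows of the other 4 held no CACGTG, and neither did those of *Uvrag*, *Hexa*, *Neu1* and *Atp6v1d*. The first 4 sequences give the 250 bases before the start in lower case and the first transcribed bases in capitals, 5′ to 3′ on the gene's strand.
Gusb promoter, chr5:130003040-130003299, minus strand: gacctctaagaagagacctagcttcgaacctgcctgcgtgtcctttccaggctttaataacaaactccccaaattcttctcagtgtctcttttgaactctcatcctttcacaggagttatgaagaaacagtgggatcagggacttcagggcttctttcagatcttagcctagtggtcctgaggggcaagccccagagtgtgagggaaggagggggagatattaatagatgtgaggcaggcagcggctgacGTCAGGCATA
Man2b1 promoter, chr8:85083019-85083278, plus strand: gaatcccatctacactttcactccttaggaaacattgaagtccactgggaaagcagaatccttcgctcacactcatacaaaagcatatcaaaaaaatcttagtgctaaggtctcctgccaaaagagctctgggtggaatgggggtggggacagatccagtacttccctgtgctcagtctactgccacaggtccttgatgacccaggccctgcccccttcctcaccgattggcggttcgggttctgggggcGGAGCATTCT
Atp6v0a1 promoter, chr11:101010148-101010407, plus strand: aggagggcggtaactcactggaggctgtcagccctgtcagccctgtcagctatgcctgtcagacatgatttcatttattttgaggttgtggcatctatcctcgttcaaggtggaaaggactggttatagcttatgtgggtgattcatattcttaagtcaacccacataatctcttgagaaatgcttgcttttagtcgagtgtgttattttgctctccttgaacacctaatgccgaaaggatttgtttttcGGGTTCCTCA
Gabarapl1 promoter, chr6:129532942-129533201, plus strand: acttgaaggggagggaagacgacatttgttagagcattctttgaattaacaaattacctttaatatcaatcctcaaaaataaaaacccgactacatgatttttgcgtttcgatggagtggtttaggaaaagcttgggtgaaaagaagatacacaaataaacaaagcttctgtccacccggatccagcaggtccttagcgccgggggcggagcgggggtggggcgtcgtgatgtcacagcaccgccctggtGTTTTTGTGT
The next 5 show stretches around the E-box, with CACGTG in capitals, for *Atp6v1a* and, as examples of genes that hold it, for *Naglu*, *Atp6v0b*, *Gla* and *Lamp1*.
Atp6v1a promoter, chr16:44139365-44139410, minus strand: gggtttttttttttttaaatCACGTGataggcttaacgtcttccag
Naglu promoter, chr11:101070001-101070046, plus strand: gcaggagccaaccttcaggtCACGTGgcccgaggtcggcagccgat
Atp6v0b promoter, chr4:117887322-117887385, minus strand: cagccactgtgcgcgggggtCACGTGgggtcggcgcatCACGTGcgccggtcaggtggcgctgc
Gla promoter, chrX:134601174-134601252, minus strand: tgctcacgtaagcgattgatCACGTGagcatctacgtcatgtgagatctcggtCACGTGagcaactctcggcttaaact
Lamp1 promoter, chr8:13159080-13159171, plus strand: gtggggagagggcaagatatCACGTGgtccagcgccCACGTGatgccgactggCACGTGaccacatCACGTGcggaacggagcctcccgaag
*Gla*, whose window held TCACGTGA at 227 and 194 bases before the start, was higher in TCM than in RM in *Camkk2*-/- cells. *Mcoln1*, *Atp6v0d1* and *Atp6v0e*, whose windows also held TCACGTGA, passed no test in any comparison. Neither did *Lamp1*, with 4 CACGTG in its window.

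The first question was how the genotypes differed in TCM. Among all 19505 genes, 2.7% rose and 1.79% fell in *Camkk2*-/- TCM-BMDM relative to WT TCM-BMDM (limma, Benjamini-Hochberg adjusted p under 0.05), and among the 10684 genes with a mean signal above the background median, as all 33 of the set had, 4.61% rose and 3.05% fell. The set had 1 of 33 higher (3.03%) and 5 of 33 lower (15.2%). At an unadjusted p under 0.05 there were 3 higher (9.09%) and 12 lower (36.4%), against 11.6% higher and 10.9% lower among the genes above the background median. The median log2 fold change of the set was −0.22, against −0.018 over all genes. By sign, 26 of the 33 values were negative, against 10308 of all 19505 genes and 5388 of the 10684 above the background median. Arrays averaged over the set stood at 13.02, 13.001, 13.01 and 13.03 in *Camkk2*-/- TCM-BMDM, against 13.37, 13.20, 13.12 and 13.26 in WT TCM-BMDM, so that the groups did not overlap and differed by −0.22.

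Hydrolases were lower by sign in 9 of 10 cases in *Camkk2*-/- TCM-BMDM, against 5388 of the 10684 genes above the background median. Of the 10, 2 passed the test as lower (20.0%, against 3.05% of those genes). Among the 9, *Sgsh*, *Asah1*, *Psap* and *Neu1* had log2 fold changes between −0.076 and −0.015, each smaller in size than its standard error. *Gusb*, which encodes the β-glucuronidase that trims glycosaminoglycans, read 13.20, 13.21, 13.14 and 13.10 in the 4 *Camkk2*-/- TCM arrays, against 14.56, 14.02, 14.19 and 14.19 in the WT TCM arrays. In RM it read 14.12, 14.49, 14.40 and 13.91 in *Camkk2*-/- cells and 14.73, 14.10, 14.46 and 14.30 in WT cells. All 4 *Camkk2*-/- TCM arrays lay below the other 12, whereas the genotypes overlapped in RM. Between genotypes, the difference in log2 signal in TCM was −1.08 with a standard error of 0.17 (adjusted p = 0.000618), or 2.11-fold lower, and in RM it was −0.17 with a standard error of 0.17 (adjusted p = 0.918).

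*Man2b1* encodes lysosomal α-mannosidase, which takes mannose off glycoproteins. It read 13.82, 14.36, 14.19 and 13.77 in *Camkk2*-/- TCM-BMDM, against 14.65, 14.58, 14.71 and 14.68 in WT TCM-BMDM. In RM it read 15.23, 15.39, 15.39 and 15.07 in *Camkk2*-/- cells and 15.32, 14.71, 15.28 and 14.88 in WT cells. The genotypes did not overlap in TCM and did in RM. Its log2 fold change came to −0.62 with a standard error of 0.17 (adjusted p = 0.0444) in TCM and 0.22 with a standard error of 0.17 (adjusted p = 0.857) in RM. The TCM value passed the threshold in only 14 of 28 alternative settings, with adjusted p from 0.0092 to 0.262.

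*Hexa*, which encodes the α subunit of β-hexosaminidase, the enzyme that degrades GM2 ganglioside, did not pass the test between genotypes in TCM. It read 15.51, 15.35, 15.17 and 15.56 in *Camkk2*-/- TCM-BMDM, against 15.85, 15.84, 16.09 and 15.87 in WT TCM-BMDM, without overlap, and the genotypes differed by −0.51 with a standard error of 0.15 (adjusted p = 0.0646). Its RM arrays read 16.11, 16.13, 15.88 and 15.94 in *Camkk2*-/- cells and 16.31, 15.79, 16.02 and 15.84 in WT cells, which overlapped. *Naglu*, an enzyme of heparan sulfate breakdown, read 12.48, 12.49, 12.21 and 12.50 in *Camkk2*-/- TCM-BMDM, against 13.21, 13.13, 12.53 and 13.26 in WT TCM-BMDM. In RM it read 11.92, 11.99, 12.55 and 12.52 in *Camkk2*-/- cells and 12.84, 12.35, 13.15 and 12.66 in WT cells. The *Naglu* groups did not overlap in TCM and overlapped in RM, and the log2 fold changes were −0.61 with a standard error of 0.21 (adjusted p = 0.113) in TCM and −0.51 with a standard error of 0.21 (adjusted p = 0.479) in RM.

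Of the other hydrolase genes, *Gla* (α-galactosidase A) had a log2 fold change between genotypes in TCM of 0.45 (adjusted p = 0.41), the only positive value of the 10. *Tpp1* (tripeptidyl peptidase 1) had −0.29 (adjusted p = 0.358) without overlap of the groups. *Sgsh* (sulfamidase), *Asah1* (acid ceramidase), *Psap* (the precursor of the saposins that help hydrolases reach their lipids) and *Neu1* (the lysosomal sialidase) lay between −0.076 and −0.015. Lysosomal membrane genes showed small differences. *Lamp2* had 0.29 (adjusted p = 0.317) with groups that did not overlap, and *Lamp1*, its close relative, had −0.032 (adjusted p = 0.952). *Scarb2*, the receptor that carries glucocerebrosidase to lysosomes, had −0.094 (adjusted p = 0.865), and *Mcoln1*, the lysosomal calcium channel, had −0.26 (adjusted p = 0.519). *Tfeb*, whose signal was close to background, had −0.023 (adjusted p = 0.978), and *Tfe3* had −0.16 (adjusted p = 0.832).

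**Figure D2:**
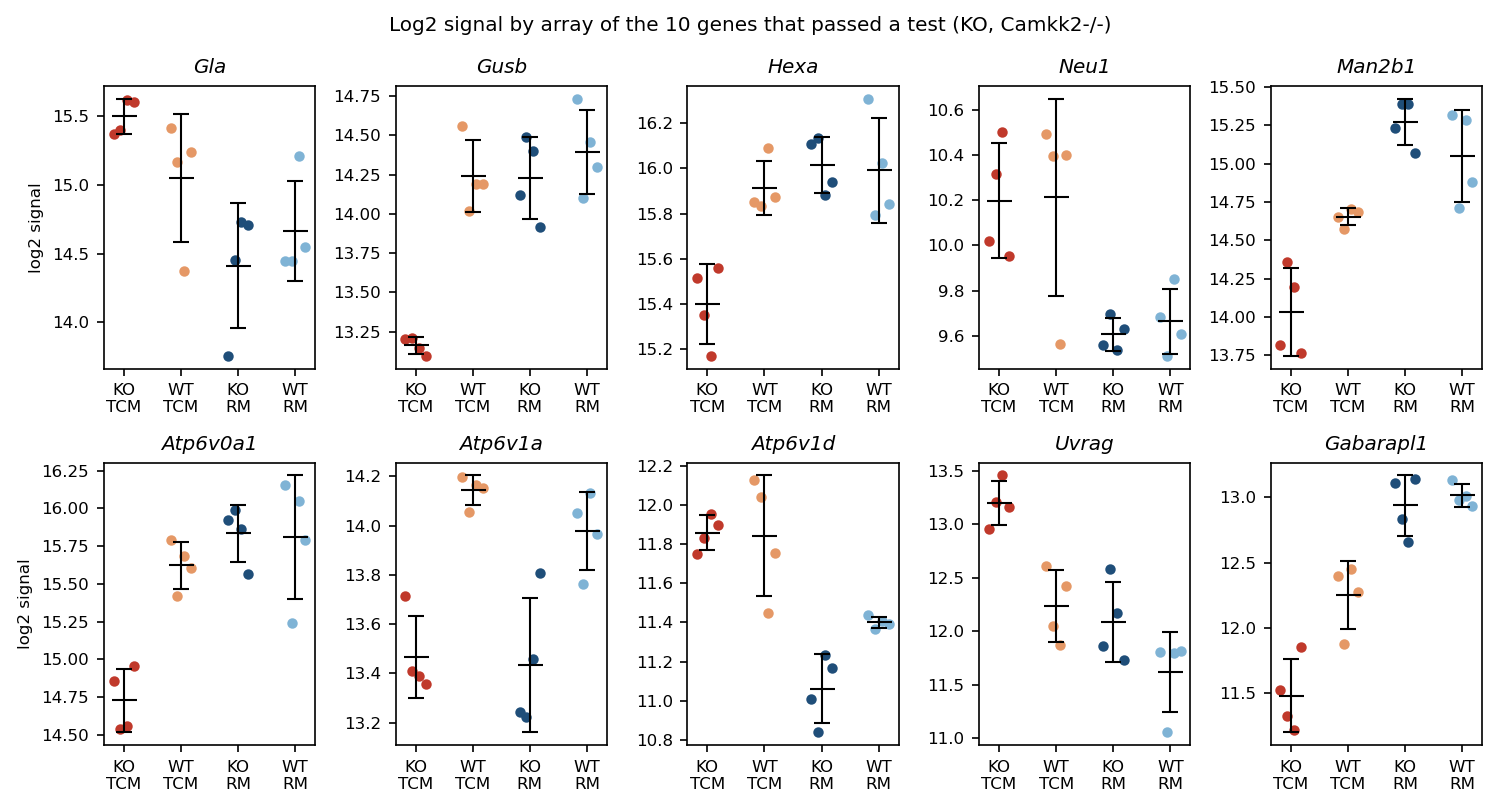
Log2 signal (y axis, a separate scale for each gene) in the 4 arrays of each group (points) with the group mean and SD (bars), for the 10 genes that passed the test in any comparison. The *Camkk2*-/- TCM arrays of *Gusb* sit between 13.10 and 13.21, below all other arrays, and those of *Uvrag* between 12.95 and 13.46, above all others.

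V-ATPase subunits were lower by sign in *Camkk2*-/- TCM-BMDM in 10 of 11 cases, against 5388 of the 10684 genes above the background median. Of the 11, 2 passed the test as lower (18.2%, against 3.05% of those genes). At an unadjusted p under 0.05, 6 were lower (54.5%, against 10.9%). *Atp6v0a1* encodes a V0 subunit that forms part of the path of the protons. It read 14.86, 14.54, 14.56 and 14.96 in *Camkk2*-/- TCM-BMDM, against 15.79, 15.42, 15.69 and 15.61 in WT TCM-BMDM. In RM it read 15.92, 15.99, 15.86 and 15.56 in *Camkk2*-/- cells and 16.16, 15.24, 16.05 and 15.79 in WT cells. Again the 4 *Camkk2*-/- TCM arrays were below the other 12, and the genotypes overlapped in RM. In TCM the log2 fold change was −0.90 with a standard error of 0.19 (adjusted p = 0.00647), or 1.86-fold lower, and in RM it was 0.024 with a standard error of 0.19 (adjusted p = 0.993).

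*Atp6v1a* encodes the subunit of V1 that hydrolyses ATP. It read 13.72, 13.41, 13.39 and 13.36 in *Camkk2*-/- TCM-BMDM, against 14.20, 14.06, 14.16 and 14.15 in WT TCM-BMDM. The RM arrays read 13.24, 13.22, 13.46 and 13.81 in *Camkk2*-/- cells and 14.05, 13.76, 14.13 and 13.97 in WT cells. All TCM arrays of *Camkk2*-/- cells were below those of WT cells, and in RM a single *Camkk2*-/- array reached into the WT range. This gave a log2 fold change of −0.67 with a standard error of 0.16 (adjusted p = 0.0142) in TCM, or 1.6-fold lower, and −0.55 with a standard error of 0.16 (adjusted p = 0.161) in RM, where it did not pass the test.

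The next subunits by adjusted p did not pass the test. *Atp6v1c1*, which encodes a V1 subunit used in assembly of the sectors, read 14.35, 13.82, 13.90 and 14.26 in *Camkk2*-/- TCM-BMDM, against 14.46, 14.59, 14.77 and 14.62 in WT TCM-BMDM, a log2 fold change of −0.53 with a standard error of 0.19 (adjusted p = 0.138). *Atp6v1b2*, the V1 subunit that alternates with the A subunit around the ring, read 14.35, 14.48, 14.79 and 14.75 in *Camkk2*-/- TCM-BMDM, against 15.31, 15.01, 14.92 and 15.03 in WT TCM-BMDM, a difference of −0.48 with a standard error of 0.17 (adjusted p = 0.156). Neither gene had overlapping groups. *Atp6v0b*, a subunit of the rotating V0 ring, read 11.16, 10.77, 10.53 and 10.72 in *Camkk2*-/- TCM-BMDM, against 11.23, 11.49, 11.42 and 10.94 in WT TCM-BMDM, a difference of −0.48 with a standard error of 0.18 (adjusted p = 0.166). Here the highest *Camkk2*-/- array lay above the lowest WT array.

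In RM, *Atp6v1c1* read 13.71, 13.54, 13.92 and 14.40 in *Camkk2*-/- cells and 14.19, 13.89, 14.37 and 14.25 in WT cells. *Atp6v1b2* read 14.85, 15.04, 15.24 and 15.20 in *Camkk2*-/- cells and 15.37, 14.65, 15.27 and 15.06 in WT cells. *Atp6v0b* read 11.21, 11.01, 10.79 and 11.02 in *Camkk2*-/- cells and 11.55, 11.002, 11.14 and 11.09 in WT cells. The genotypes overlapped in RM for all of these. The other subunits had the following log2 fold changes in TCM: the regulatory V1 subunit gene *Atp6v1h* −0.39 (adjusted p = 0.232), the accessory subunit gene *Atp6ap1* −0.34 (adjusted p = 0.431), and the stalk subunit gene *Atp6v1e1* −0.25 (adjusted p = 0.41). *Atp6v0d1*, which joins V0 to the central stalk, had −0.22 (adjusted p = 0.717), and *Atp6v0e*, a small V0 subunit, had −0.22 (adjusted p = 0.644). *Atp6v1d*, a central stalk subunit, had 0.016 (adjusted p = 0.98).

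Relative to each gene's mean over the 16 arrays, the 11 subunits averaged −0.19 (range of the 4 arrays −0.24 to −0.10) in *Camkk2*-/- TCM-BMDM and 0.22 (0.16 to 0.32) in WT TCM-BMDM. They averaged −0.12 (−0.20 to −0.012) in *Camkk2*-/- RM-BMDM and 0.086 (−0.19 to 0.26) in WT RM-BMDM. The genotypes did not overlap in TCM and overlapped in RM. There 9 of 11 subunits were also lower by sign, against 8971 of all 19505 genes in RM. The other 13 measured V-ATPase subunit genes, listed apart from the set, averaged −0.12 (−0.15 to −0.064) in *Camkk2*-/- TCM-BMDM and 0.094 (0.035 to 0.14) in WT TCM-BMDM. Of these, 12 of 13 were lower by sign in TCM and 5 of 13 in RM, against 10308 and 8971 of all 19505 genes. At an unadjusted p under 0.05, 1 of the 13 was lower and 1 higher in TCM (7.69% each). Both shares were under the 10.9% and 11.6% among the genes above the background median. *Atp6v0d2*, the isoform of the d subunit known from osteoclasts and macrophages, was the only one of the 13 to pass the test, at −1.07 with a standard error of 0.17 (adjusted p = 0.000568).

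**Figure D3:**
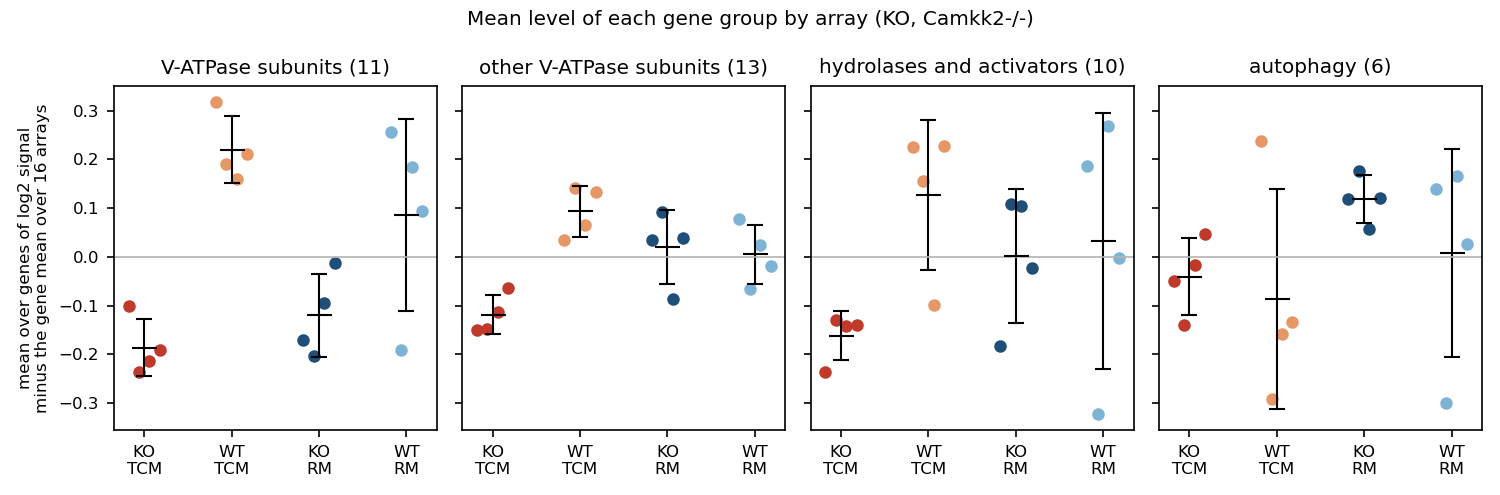
Mean over the genes of a group of the log2 signal, as the difference from each gene's mean over 16 arrays (y axis), in the 4 arrays of each group (points; bars, mean and SD). The *Camkk2*-/- TCM arrays lie below the WT TCM arrays for the V-ATPase subunits of the set and for the other subunits, whereas the groups overlap for the autophagy genes.

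Autophagy genes went in both directions between genotypes in TCM, with 1 of 6 lower and 1 of 6 higher by the test (16.7% each). Among the genes above the background median, 3.05% were lower and 4.61% higher. *Gabarapl1* encodes a protein of the ATG8 family, which is tied to the autophagosome membrane. It read 11.52, 11.33, 11.22 and 11.85 in *Camkk2*-/- TCM-BMDM, against 12.40, 11.88, 12.45 and 12.28 in WT TCM-BMDM. In RM it read 13.11, 12.84, 12.66 and 13.14 in *Camkk2*-/- cells and 13.13, 12.98, 13.01 and 12.93 in WT cells. The highest *Camkk2*-/- TCM array (11.85) lay just under the lowest WT TCM array (11.88), and the genotypes overlapped in RM. Its difference between genotypes was −0.77 with a standard error of 0.17 (adjusted p = 0.0114) in TCM, or 1.71-fold lower, and −0.077 with a standard error of 0.17 (adjusted p = 0.976) in RM.

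*Uvrag* encodes a subunit of the Beclin 1 lipid kinase complex that acts in autophagosome and endosome maturation. It read 12.95, 13.20, 13.46 and 13.16 in *Camkk2*-/- TCM-BMDM, against 12.61, 12.05, 11.87 and 12.42 in WT TCM-BMDM. In RM it read 11.86, 12.58, 12.17 and 11.73 in *Camkk2*-/- cells and 11.80, 11.06, 11.80 and 11.82 in WT cells. All *Camkk2*-/- TCM arrays exceeded the other 12, and the genotypes overlapped in RM. On the log2 scale the genotypes differed by 0.96 with a standard error of 0.22 (adjusted p = 0.0128) in TCM, or 1.94-fold higher, and 0.47 with a standard error of 0.22 (adjusted p = 0.597) in RM. *Becn1*, which encodes Beclin 1 itself, had 0.40 (adjusted p = 0.245) in TCM. *Sqstm1*, the cargo receptor p62, had −0.35 (adjusted p = 0.225) without overlap of the groups. *Map1lc3b* (LC3B) and *Wipi1*, which binds the lipid made by the Beclin 1 complex, had 0.0063 and 0.039. The signal of *Wipi1* was close to background, with group means of 7.25 to 7.64.

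The counts in TCM rested in part on single arrays. Without *Camkk2*-/- TCM replicate 3, 2 genes were lower (*Gusb* and *Atp6v0a1*) and 0 higher. Without WT TCM replicate 3, *Uvrag* no longer passed and 0 genes were higher. Without WT TCM replicates 1 and 3, whose deviations were the widest, *Gusb* alone was lower and 0 genes were higher, with 2 WT arrays left in that comparison. Markers of other cells differed along with the genotype in TCM: the mean of the neutrophil list, relative to the gene means, was 1.17 in *Camkk2*-/- TCM-BMDM (range 0.58 to 1.80) and 0.42 in WT TCM-BMDM (−0.27 to 0.89). For the inflammatory monocyte list it was 2.17 (1.63 to 2.41) in *Camkk2*-/- cells and 0.70 (−0.51 to 1.45) in WT cells, and for the mast cell and basophil list 1.38 (0.69 to 2.34) in *Camkk2*-/- cells and 0.45 (0.19 to 0.69) in WT cells. By sign, 10 of 11 neutrophil, 3 of 4 inflammatory monocyte and 4 of 4 mast cell and basophil genes were higher in *Camkk2*-/- cells. The neutrophil gene *Mmp8* and the monocyte gene *F13a1* were lower. The macrophage list averaged −0.023 (−0.18 to 0.11) in *Camkk2*-/- cells and 0.018 (−0.059 to 0.096) in WT cells. Of its 7 genes, 5 were lower in *Camkk2*-/- cells and 2 higher by sign, with a median log2 fold change of −0.26. In this comparison 4.61% of the genes above the background median were higher and 3.05% lower. By the test, 2 of the 11 neutrophil genes, 1 of the 4 inflammatory monocyte genes, 1 of the 4 mast cell and basophil genes and 1 of the 6 dendritic cell genes were higher in *Camkk2*-/- cells, and 1 of the 7 macrophage genes was lower. The part of these cells in the differences was not tested.

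**Figure D4:**
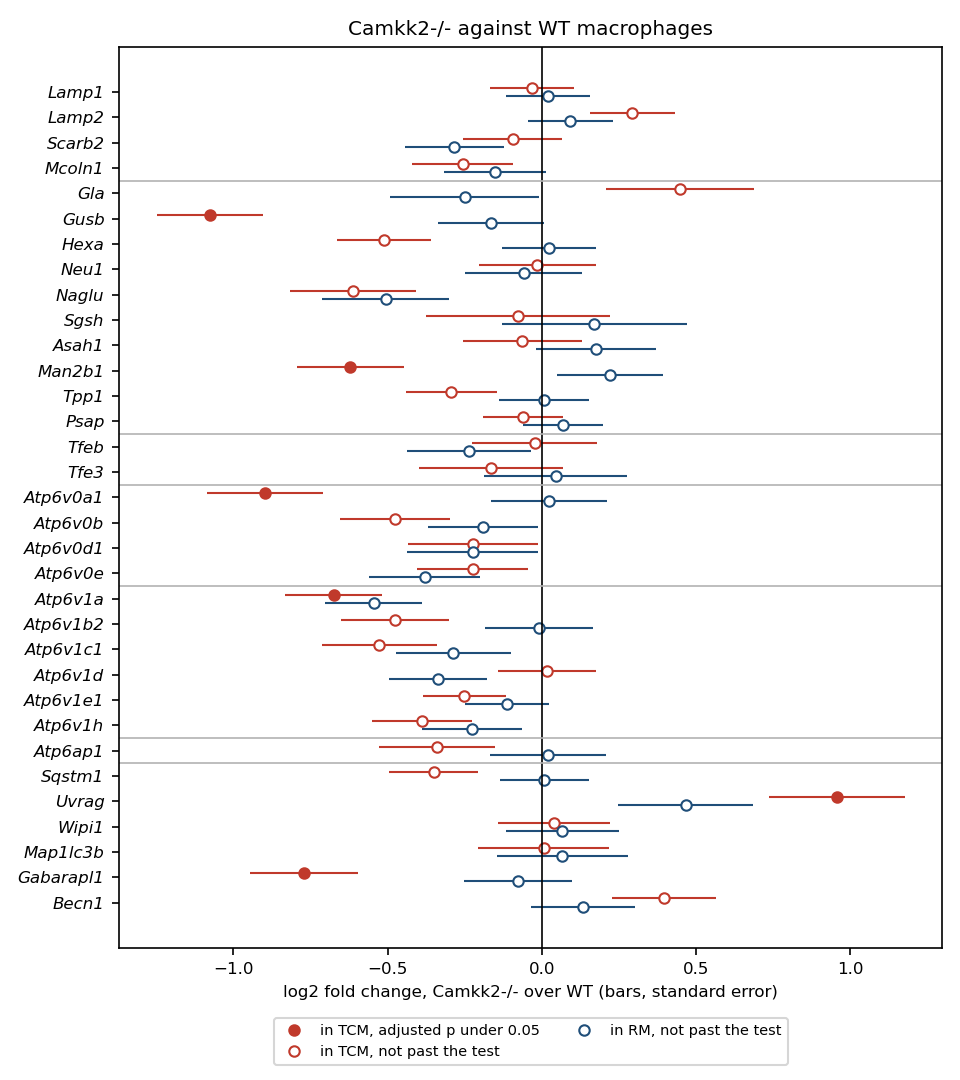
Log2 fold change of *Camkk2*-/- over WT (x axis; bars, standard error) for each of the 33 genes (y axis, by role), in TCM (red) and in RM (blue). Filled points passed the test, which 6 genes did in TCM and 0 in RM, and 10 of the 11 V-ATPase points in TCM lie left of 0.

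The second comparison asked whether the genotypes also differed without TCM. In RM, 0 of 33 genes rose and 0 fell in *Camkk2*-/- relative to WT BMDM with limma. Among all genes 0.446% were higher and 0.292% lower, and among those above the background median 0.749% and 0.468%. At an unadjusted p under 0.05, 1 of the set was higher (*Uvrag*, 3.03%) and 4 lower (*Atp6v1a*, *Naglu*, *Atp6v1d* and *Atp6v0e*, 12.1%). Among the genes above the background median 6.43% were higher and 3.77% lower. The median log2 fold change was −0.0082, against 0.021 over all genes. Averaged over the set, arrays stood at 13.03, 13.15, 13.14 and 13.12 in *Camkk2*-/- RM-BMDM, against 13.32, 12.91, 13.33 and 13.17 in WT RM-BMDM. These groups overlapped, with WT RM replicate 2 below all other RM arrays. The largest negative value was that of *Atp6v1a*, and *Atp6v1d* and *Scarb2* had groups that did not overlap, with log2 fold changes of −0.34 (adjusted p = 0.594) and −0.28 (adjusted p = 0.724).

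Whether the genotype effect differed between media was tested as an interaction. No gene of the set passed, in either direction. Among all genes 0.0513% were higher and 0.0923% lower, and among those above the background median 0.0749% and 0.168%. At an unadjusted p under 0.05, 0 of the set were positive and 5 negative (15.2%), against 4.40% positive and 5.68% negative among the genes above the background median. The 5 were *Gusb* (−0.91, adjusted p = 0.2), *Atp6v0a1* (−0.92, adjusted p = 0.252), *Man2b1* (−0.84, adjusted p = 0.252), *Gabarapl1* (−0.69, adjusted p = 0.397) and *Hexa* (−0.54, adjusted p = 0.487). The difference between the TCM and RM effects of the genotype was thus not shown for any single gene of the set.

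The third comparison asked what TCM did within *Camkk2*-/- macrophages. Among all genes, 6.13% rose and 5.37% fell in TCM relative to RM, and among the genes above the background median 9.85% rose and 9.04% fell. The set had 4 of 33 higher (12.1%) and 5 of 33 lower (15.2%), and 7 higher (21.2%) and 9 lower (27.3%) at an unadjusted p under 0.05, against 17.0% higher and 17.6% lower among the genes above the background median. Its median log2 fold change was −0.040, against 0.0097 over all genes. This comparison shares the *Camkk2*-/- TCM arrays with the comparison of genotypes in TCM, so that the values are not independent of it, and likewise each of the 4 comparisons between groups shares a group with 2 others.

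Among the genes lower in TCM, *Gabarapl1* differed on the log2 scale by −1.46 with a standard error of 0.17 (adjusted p = 6.96e-06), or 2.75-fold lower, and *Man2b1* had −1.24 with a standard error of 0.17 (adjusted p = 3.96e-05), or 2.36-fold lower. *Atp6v0a1* had −1.11 with a standard error of 0.19 (adjusted p = 0.000344) and *Gusb* had −1.07 with a standard error of 0.17 (adjusted p = 0.000202). *Hexa* had −0.62 with a standard error of 0.15 (adjusted p = 0.0105). For each of these, the 4 TCM arrays of *Camkk2*-/- cells were below the 4 RM arrays. *Atp6v1a* had 0.035 with a standard error of 0.16 (adjusted p = 0.922) between media, with overlapping arrays.

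Genes that were higher in TCM were led by *Uvrag*, at 1.11 with a standard error of 0.22 (adjusted p = 0.00159), or 2.16-fold. *Gla*, the enzyme that removes terminal galactose from glycolipids, read 15.37, 15.40, 15.61 and 15.60 in *Camkk2*-/- TCM-BMDM, against 13.76, 14.46, 14.73 and 14.71 in *Camkk2*-/- RM-BMDM. Its WT arrays read 15.41, 15.17, 14.37 and 15.24 in TCM and 14.45, 14.45, 15.21 and 14.55 in RM. The *Camkk2*-/- groups were apart, the WT groups overlapped, and TCM differed from RM in *Camkk2*-/- cells by 1.08 with a standard error of 0.24 (adjusted p = 0.00437), or 2.12-fold.

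*Atp6v1d* read 11.75, 11.83, 11.95 and 11.90 in *Camkk2*-/- TCM-BMDM, against 11.01, 10.84, 11.24 and 11.17 in *Camkk2*-/- RM-BMDM. In WT cells it read 12.13, 12.04, 11.45 and 11.75 in TCM and 11.44, 11.37, 11.41 and 11.39 in RM. All TCM arrays exceeded all RM arrays of the same genotype. The difference between media was 0.80 with a standard error of 0.16 (adjusted p = 0.00165) in *Camkk2*-/- cells and 0.44 with a standard error of 0.16 (adjusted p = 0.174) in WT cells, where it did not pass the test. *Neu1*, the sialidase, read 10.02, 10.32, 10.50 and 9.95 in *Camkk2*-/- TCM-BMDM, against 9.56, 9.70, 9.54 and 9.63 in *Camkk2*-/- RM-BMDM. Its WT arrays read 10.50, 10.39, 9.56 and 10.40 in TCM and 9.68, 9.51, 9.85 and 9.61 in RM. The *Camkk2*-/- arrays were apart and the WT arrays overlapped through replicate 3 in TCM, and the log2 fold changes were 0.59 with a standard error of 0.19 (adjusted p = 0.0487) in *Camkk2*-/- cells and 0.55 with a standard error of 0.19 (adjusted p = 0.158) in WT cells. The call of *Neu1* in *Camkk2*-/- cells was lost in 16 of 28 alternative settings.

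The 24 genes that passed no test between media in *Camkk2*-/- cells had values from −0.50 (*Tfe3*, adjusted p = 0.194) to 0.39 (*Scarb2*, adjusted p = 0.135). V-ATPase subunits were split by sign in *Camkk2*-/- cells, 6 positive and 5 negative. *Map1lc3b*, a widely used autophagosome marker, had −0.40 (adjusted p = 0.265), and *Lamp2* had 0.36 (adjusted p = 0.112), with groups that did not overlap in either case.

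**Figure D5:**
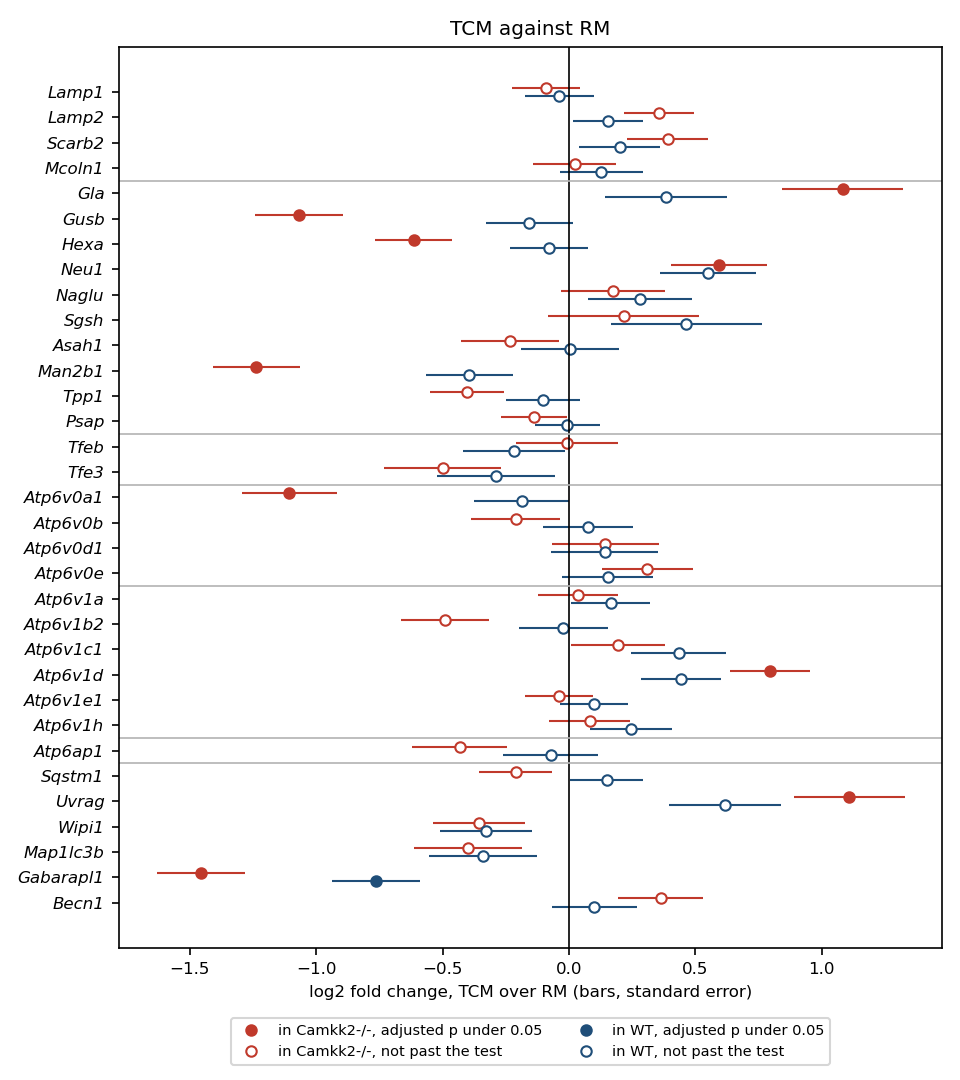
Log2 fold change of TCM over RM (x axis; bars, standard error) for each of the 33 genes (y axis, by role), in *Camkk2*-/- cells (red) and in WT cells (blue). Filled points passed the test: 9 genes in *Camkk2*-/- cells, and *Gabarapl1* alone in WT cells.

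The fourth comparison asked the same of WT macrophages. In WT cells, 0 of 33 genes were higher and 1 was lower (3.03%) in TCM. Among all genes 2.21% were higher and 0.697% lower, and among those above the background median 3.81% and 1.21%. At an unadjusted p under 0.05, 4 of the set were higher (12.1%) and 2 lower (6.06%), against 12.1% higher and 7.45% lower among the genes above the background median. The median log2 fold change was 0.098, against 0.039 over all genes. The gene that fell was *Gabarapl1*, at −0.76 with a standard error of 0.17 (adjusted p = 0.0176), or 1.7-fold lower, with all TCM arrays below all RM arrays. *Uvrag* had 0.62 with a standard error of 0.22 (adjusted p = 0.17) without overlap of the groups, and *Man2b1* had −0.39 with a standard error of 0.17 (adjusted p = 0.297), also without overlap. *Gusb* (−0.16), *Hexa* (−0.079) and *Atp6v0a1* (−0.19) had overlapping arrays. Without WT TCM replicate 3, *Neu1* and *Atp6v1d* passed the test as higher. Leaving out WT RM replicate 1 or WT TCM replicate 2 ended the call of *Gabarapl1* (adjusted p = 0.0576 and 0.0866).

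Markers of neutrophils, inflammatory monocytes, and mast cells and basophils were higher in TCM in both genotypes. Among the genes above the background median, 9.85% were higher and 9.04% lower in TCM in *Camkk2*-/- cells, and 3.81% and 1.21% in WT cells. The neutrophil list averaged −0.54 (range −1.24 to −0.18) in *Camkk2*-/- RM-BMDM and −1.05 (−1.56 to −0.63) in WT RM-BMDM, below the TCM values given above, and 6 of its 11 genes passed the test as higher in TCM in each genotype. The inflammatory monocyte list averaged −0.87 (−1.65 to −0.41) in *Camkk2*-/- RM-BMDM and −1.99 (−2.64 to −0.95) in WT RM-BMDM, with 2 of 4 genes higher in TCM in *Camkk2*-/- cells and 3 of 4 in WT cells. The mast cell and basophil list averaged −0.58 (−1.31 to 0.13) in *Camkk2*-/- RM-BMDM and −1.24 (−1.36 to −0.99) in WT RM-BMDM, with 4 of 4 genes higher in TCM in *Camkk2*-/- cells and 3 of 4 in WT cells. The macrophage list averaged 0.17 (0.00067 to 0.34) in *Camkk2*-/- RM-BMDM and −0.17 (−0.44 to −0.053) in WT RM-BMDM, and 3 of its 7 genes were lower and 1 higher in TCM in *Camkk2*-/- cells, against 0 lower and 1 higher in WT cells. Of the 6 dendritic cell genes, 3 were higher in TCM in *Camkk2*-/- cells and 0 in WT cells, and no T cell, B cell, erythroid, fibroblast or epithelial marker passed in any comparison. Their part in the values of the lysosomal genes was not tested.

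Other genes of the same compartments were counted from 6 lists, to be read against these shares among the genes above the background median. Between genotypes, 4.61% were higher and 3.05% lower in *Camkk2*-/- cells in TCM, and 0.749% and 0.468% in RM. Between media, 9.85% were higher and 9.04% lower in TCM in *Camkk2*-/- cells, and 3.81% and 1.21% in WT cells. Of 30 other hydrolase genes, 1 was higher (3.33%) and 3 lower (10.0%) in *Camkk2*-/- TCM-BMDM than in their WT counterparts. By sign, 19 of the 30 were lower in TCM and 8 in RM. *Lipa*, the acid lipase that frees cholesterol from its esters, had −0.66 (adjusted p = 0.00607), *Idua*, the iduronidase, had −1.02 (adjusted p = 0.0221), *Aga*, an asparaginase of glycoproteins, had −0.63 (adjusted p = 0.0342), and *Plbd1*, a phospholipase B-like protein, had 0.96 (adjusted p = 0.0496). Within *Camkk2*-/- cells, 1 of the 30 was higher (3.33%) and 5 were lower (16.7%) in TCM. The smallest adjusted p were those of *Lipa* (−0.94, adjusted p = 5.78e-05), the fucosidase gene *Fuca1* (−0.99, adjusted p = 0.00204) and the phospholipase gene *Pla2g15* (−0.88, adjusted p = 0.00856). In WT cells *Plbd1* alone was higher in TCM (1.11, adjusted p = 0.0298) and 0 were lower. Median log2 fold changes of this list were −0.10 between genotypes in TCM and 0.10 in RM, where 0 passed the test in either direction (4 higher and 2 lower at an unadjusted p under 0.05).

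Cathepsins are the lysosomal proteases. Of 10 measured, *Ctsl* was higher in *Camkk2*-/- than in WT cells in TCM (0.54, adjusted p = 0.0439) and in RM (0.83, adjusted p = 0.00594), and 0 were lower in either medium (2 lower in TCM and 0 in RM at an unadjusted p under 0.05). In TCM against RM, *Ctsc* was higher in *Camkk2*-/- cells (1.26, adjusted p = 0.000802) and in WT cells (1.40, adjusted p = 0.00134), and *Ctsh* was higher (1.19, adjusted p = 0.00702) and *Ctsf* lower (adjusted p = 0.000328) in *Camkk2*-/- cells, with a mean of 5.21 in TCM, under the background median, against 6.96 in RM, so that no fold change is given for it.

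Of 36 other membrane and sorting genes, 1 was higher (2.78%) and 1 lower (2.78%) in *Camkk2*-/- TCM-BMDM than in their WT counterparts. Both shares were under those among the genes above the background median (4.61% and 3.05%). *Npc2*, which hands cholesterol to the lysosomal exporter NPC1, had 0.66 (adjusted p = 0.0121), and *Sort1*, a sorting receptor between the Golgi apparatus and endosomes, had −0.70 (adjusted p = 0.00754). In RM the direction was the opposite, with *Sort1* higher in *Camkk2*-/- than in WT cells (0.98, adjusted p = 0.00106). *Sort1* was the only gene of the 6 pathway lists to pass the interaction test (−1.68, adjusted p = 0.000978). In *Camkk2*-/- cells, 3 of the 36 were higher (8.33%) and 3 lower (8.33%) in TCM, close to the 9.85% and 9.04% among the genes above the background median. Among them were *Sort1* (−1.77, adjusted p = 1.22e-07), *Npc2* (1.00, adjusted p = 8.95e-05) and the nucleoside transporter gene *Slc29a3* (0.91, adjusted p = 0.00188). In WT cells 0 passed in either direction (5 higher and 2 lower at an unadjusted p under 0.05).

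Of the 13 other V-ATPase subunit genes, *Atp6v0d2* was lower in TCM than in RM in *Camkk2*-/- cells (−1.23, adjusted p = 3.38e-05), and 0 passed the test in WT cells (1 higher and 0 lower at an unadjusted p under 0.05). Of 45 other autophagy genes, 0 were higher and 0 lower in *Camkk2*-/- TCM-BMDM than in their WT counterparts, with 4 higher and 3 lower at an unadjusted p under 0.05. In *Camkk2*-/- cells 5 of the 45 were higher (11.1%) and 4 lower (8.89%) in TCM, close to the 9.85% and 9.04% among the genes above the background median, and the smallest adjusted p were those of *Bnip3*, a receptor for the autophagy of mitochondria (1.72, adjusted p = 0.000457), *Tax1bp1*, a cargo receptor (0.83, adjusted p = 0.0039), and *Vamp8*, a fusion protein of endosomes and autophagosomes (0.93, adjusted p = 0.00532). In WT cells 0 of the 45 passed (7 higher and 3 lower at an unadjusted p under 0.05).

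Of 26 relatives of TFEB and regulators of mTORC1, 1 (3.85%) was higher and 0 were lower in *Camkk2*-/- TCM-BMDM relative to WT (5 lower at an unadjusted p under 0.05). The higher gene was *Sesn3*, an inhibitor of mTORC1 signaling (0.98, adjusted p = 0.0194), with overlapping arrays. Its mean in WT TCM-BMDM (6.87) was close to the highest mean of the background probe sets (6.82). In *Camkk2*-/- cells 4 of the 26 were higher (15.4%) and 4 lower (15.4%) in TCM. These were led by *Sesn1*, another sestrin (−1.89, adjusted p = 9.8e-06), *Deptor*, an mTOR-binding inhibitor (−1.54, adjusted p = 0.000228), and *Tfec*, a TFEB relative known from macrophages (0.86, adjusted p = 0.00651). In WT cells *Fnip2*, a partner of folliculin, was higher in TCM (0.69, adjusted p = 0.0497) and 0 were lower (6 lower at an unadjusted p under 0.05).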

How the data were processed

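RNA of 16 cultures was measured on mouse Affymetrix arrays. The authors deposited log2 signals per probe set. Their notes name Affymetrix Expression Console. The sources used here give no summarization, normalization or genome build, and the signals were taken as they stood. Of 28846 probe sets, 6640 controls and 2634 without a symbol were left out, and for 55 genes with several probe sets the brightest was kept, which gave 19505 genes. Groups were taken from the labels.

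All 16 arrays entered 1 model of the 4 groups, fitted without covariates by limma 3.58.1 under R 4.3.3 and moderated with eBayes, with Benjamini-Hochberg adjustment over all genes, and calls were made at an adjusted p under 0.05. The code was checked on simulated arrays. Genes given with full values were those called in any comparison and the 4 next by adjusted p between genotypes in TCM, and up to 3 called genes per pathway list and comparison were named. The genes and lists were chosen with earlier results of these data known. The number of mice behind each replicate, and whether RM and TCM cultures of a number share marrow, are not stated, and p-values measure the spread between these cultures. The number of arrays limits the precision. The alternatives tried were each array left out, the 8 arrays of a comparison alone, the replicate number as a block, a trended robust variance, array weights, quantile normalization, median centring, a filter on the dimmest 40% of genes, the mean over probe sets, and other thresholds. Chosen after seeing the data were a factor for replicates 1 and 2 against 3 and 4, and leaving out WT TCM replicates 1 and 3.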

Additional observations from a re-analysis of the deposited data

Results flagged for a closer look

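In groups of 4 arrays, a single array stood apart from the other 3 in 11 of 136 tests, which covered the 33 genes and the mean over the set in each group. Chance alone flags about 5% of such groups. In WT TCM-BMDM, replicate 3 was apart for *Hexa* (16.09, with the next at 15.87), *Neu1* (9.56, next 10.39) and *Naglu* (12.53, next 13.13), and replicate 1 for *Psap* (18.46, next 18.58), *Atp6v0e* (12.72, next 13.03) and *Sqstm1* (14.45, next 14.04). In *Camkk2*-/- TCM-BMDM, replicate 3 was apart for *Naglu* (12.21, next 12.48) and replicate 1 for *Atp6v1a* (13.72, next 13.41). In WT RM-BMDM, replicate 3 was apart for *Gla* (15.21, next 14.55), replicate 4 for *Tfe3* (12.12, next 12.54) and replicate 2 for *Uvrag* (11.06, next 11.80). For *Sort1*, a gene outside the set, the effect of the genotype in TCM differed from that in RM by a log2 value of −1.68 in the interaction test (adjusted p = 0.000978).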

How the results depend on the processing

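Of 672 values (24 gene results under 28 settings), 608 kept their direction and side of the threshold, 45 lost the call, 8 gained it and 11 changed sign. Some settings could not move a value: leaving out an array of a group outside the comparison changed the adjusted p but not the log2 fold change. A looser threshold could not end a call. Between genotypes in TCM, *Gusb* kept its call in all 28 settings (adjusted p from 8.71e-05 to 0.0209) and *Atp6v0a1* in 27. Sign changes concerned the genotype effect in TCM of *Neu1* and *Atp6v1d*, neither of them called: *Neu1* ranged from −0.23 to 0.079 with each array left out, and *Atp6v1d* from −0.12 to 0.11, with −0.018 under array weights, −0.027 under quantile normalization and −0.039 without WT TCM replicates 1 and 3. Between genotypes in TCM, the 1 higher gene became 0 at an adjusted p under 0.01 and 0 without WT TCM replicates 1 and 3, and 0 to 1 with each array left out. The 5 lower genes became 2 at 0.01, 1 without those replicates, and 2 to 5 with each array left out. In *Camkk2*-/- cells, quantile normalization gave 8 genes lower in TCM in place of 5, adding *Atp6ap1*, *Atp6v1b2* and *Tpp1*. In WT cells, the count of genes higher in TCM was 1 without WT TCM replicates 1 and 3 and 0 to 2 with each array left out, and the count of lower genes was 0 at 0.01 and 0 to 1 with each array left out. The causes were not tested. With the replicate number as a block (replicate block), 4 genes were lower (without *Man2b1*) and 1 higher between genotypes in TCM, 5 were lower and 3 higher (without *Neu1*) in TCM in *Camkk2*-/- cells, and no other call changed. *Hexa*, not called between genotypes in TCM, had adjusted p from 0.0221 to 0.36. Deviations of arrays with the same number had r from −0.17 to 0.23 (median 0.058, 8 of 24 pairs above 0.1), against a median of −0.023 for different numbers (11 of 72 above 0.1). Only pairs within a genotype could share marrow, whereas the 24 pairs also hold pairs between genotypes. Between RM and TCM arrays of numbers 1 to 4, r was 0.15, 0.185, −0.13 and 0.19 in WT cells. In *Camkk2*-/- cells it was 0.10, 0.027, 0.056 and 0.13. As not every pair was above 0.1, the numbers were not used as pairs, although such a cut cannot decide the question. The replicate block joined arrays of a number from both genotypes, so that pairs of RM and TCM within a genotype were not fitted. Whether the numbers mark shared marrow was not settled. In the set, *Tfeb* alone had a value under the highest mean of the background probe sets (6.82). *Wipi1*, with a lowest value of 6.88, was close to it.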
